A study of Mus musculus with 54 samples.

Results

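The genes described here encode the enzymes that attach a glucuronic acid, sugar or sulfate group to drugs, steroids and phenols, or that expose a site for such an attachment. They are the UDP-glucuronosyltransferases (UGT), the cytosolic sulfotransferases (SULT), the carboxylesterases (CES) and the flavin-containing monooxygenases (FMO), with Ugdh and Ugp2, which supply the glucuronic acid donor. The rule goes by gene name: every gene symbol starting with Ugt1 to Ugt3, Sult, Ces or Fmo and a digit, leaving out pseudogenes marked as such, and the donor enzymes. It uses no expression value and found 66 of the 55487 genes in the deposited table.

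RNA was sequenced from SGLT2-positive tubules, the early proximal segment of the nephron, which had been cut from kidneys of male DBA mice aged 14 weeks by laser capture. Diabetic mice carried the Akita mutation in 1 copy of the insulin gene Ins2 and their non-diabetic littermates did not. Mice of either kind were wild type (Sglt1+/+) or lacked the glucose transporter SGLT1, product of Slc5a1, throughout the body (Sglt1-/-, here called knockout). Treatment lasted 2 weeks and was vehicle, the SGLT2 inhibitor dapagliflozin at 10 mg/kg diet, or, in Akita wild type alone, the GLP-1 receptor agonist semaglutide at 3 nmol/kg per day under the skin. The table held 6 samples of Akita knockouts with dapagliflozin and 6 with vehicle, and 5 of Akita wild type with semaglutide, 5 with dapagliflozin and 6 with vehicle. Non-diabetic mice gave 6 knockout dapagliflozin, 5 knockout vehicle, 4 wild-type dapagliflozin and 5 wild-type vehicle samples. Each sample pooled 70 to 80 tubules, and nothing in the labels says which samples came from the same animal. The p-values therefore reflect how far these samples scatter, and part of that scatter may be technical.

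Glucuronidation proceeds in the endoplasmic reticulum. Ugp2 makes UDP-glucose, Ugdh oxidizes it to UDP-glucuronic acid, and a UGT moves the glucuronic acid to the substrate, which is then water-soluble enough to be secreted by organic anion carriers. Sulfotransferases do the same with sulfate in the cytosol. Carboxylesterases cut ester and amide bonds of drugs and of neutral lipids in the lumen of the endoplasmic reticulum, and FMO enzymes oxygenate nitrogen and sulfur atoms. In the kidney, the proximal tubule is a main site of glucuronidation and of the secretion of conjugates.

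The UGT1 genes share a gene body, which bears on how well their RNA can be told apart. On chromosome 1 (GRCm38, from 88055388 to 88220002, plus strand) each has its own first coding exon, spliced to the same exons 2 to 5 (88215044 to 88218421), which supply 735 coding bases, or 46% to 46.3% of the coding sequence of the 5 members tested below. To show where the members stop differing, the following lines give the last 30 bases of each own first exon in lower case and the first 30 bases of the shared exon 2 in capitals, from the GENCODE transcripts of GRCm38.
Ugt1a7c: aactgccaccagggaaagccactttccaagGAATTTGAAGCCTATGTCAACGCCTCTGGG
Ugt1a6b: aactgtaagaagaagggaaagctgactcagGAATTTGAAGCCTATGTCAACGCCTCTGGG
Ugt1a6a: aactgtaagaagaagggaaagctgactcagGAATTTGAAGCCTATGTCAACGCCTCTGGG
Ugt1a5: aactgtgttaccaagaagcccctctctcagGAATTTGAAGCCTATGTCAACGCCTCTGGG
Ugt1a2: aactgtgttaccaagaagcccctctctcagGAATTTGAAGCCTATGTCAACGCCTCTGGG
Ugt1a6a and Ugt1a6b are alike in the lower-case part as well, and so are Ugt1a5 and Ugt1a2. Of all stretches of 31 bases in the transcripts of Ugt1a6a, 96.8% also occurred in another gene's transcripts, against 84.2% for Ugt1a6b, 65.3% for Ugt1a5, 65.1% for Ugt1a2 and 56.1% for Ugt1a7c. One annotated transcript of Ugt1a7c carries the first coding exon of Ugt1a6a (88138474 to 88139331), so reads of that exon can be given to either gene. Elsewhere, 58.2% of Ces2c, 56.4% of Ugt2b5, 52.9% of Ugt2b38, 34.4% of Ugt2b37, 20.7% of Ugt3a1 and 20.3% of Ugt3a2 were shared, while Ugp2, Sult1d1 and Fmo4 shared nothing. The partner of Ces2c was mainly the pseudogene Ces2d-ps (50.2%), which lay between 0 and 0.229 TPM in all 48 libraries. How the estimated abundances were divided between such genes was not tested, and levels of the UGT1 members, Ugt1a7c included, and of Ces2c, Ugt2b5 and Ugt2b38 are uncertain on this ground.

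Promoters are shown for Ugdh and Ces2c, the called members with the largest changes under dapagliflozin. The lines give the 250 bases before the RefSeq start (GRCm38.p6), 5′ to 3′ on the strand of the gene. Capitals mark matches to TGACNNNGC, the core of the element bound by NRF2.
Ugdh (chr5:65435843-65436092, minus strand): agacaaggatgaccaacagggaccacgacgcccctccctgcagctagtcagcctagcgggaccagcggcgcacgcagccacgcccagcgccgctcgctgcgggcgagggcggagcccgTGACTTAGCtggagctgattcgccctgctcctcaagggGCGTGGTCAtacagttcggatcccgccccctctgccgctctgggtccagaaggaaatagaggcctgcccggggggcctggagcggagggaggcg
Ces2c (chr8:104846818-104847067, plus strand): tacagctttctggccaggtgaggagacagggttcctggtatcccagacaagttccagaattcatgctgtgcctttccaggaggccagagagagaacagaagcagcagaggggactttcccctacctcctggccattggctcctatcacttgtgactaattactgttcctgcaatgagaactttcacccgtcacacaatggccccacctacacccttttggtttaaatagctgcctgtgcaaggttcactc
The Ugdh window held 2 matches, starting at -132 and -94 from the start, 1 on each strand, and the Ces2c window held none. The Ugdh gene, at the coordinates given below, begins inside this window, upstream of the RefSeq start. The match at -94 therefore lies within that gene, and the match at -132 before it. Matches were sought on both strands from 250 bases before to 50 after the start. Of 27025 genes with a RefSeq promoter, 14% held this motif, and of the 22 tested members with a promoter Ugdh alone did. CAAAGTCCA, a site of HNF4, was matched in 0.555% and a palindromic androgen receptor element in 0.0111% of promoters, and neither in a tested member. A match describes letters and not a bound site.

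The libraries differed in how much of the signal came from nuclear protein-coding genes, between 5.98% and 14.1% of TPM. TPM (a length-corrected measure of abundance, scaled to the same sum in every library) keeps no sequencing depth, so depth is unknown and no counting error can be given. The 4 libraries with fewer than 9000 genes at a TPM of at least 1 were all from Akita vehicle mice, wild-type samples 2 and 5 and knockout samples 5 and 6. They had the 4 lowest protein-coding shares (5.98% to 6.66%, against 7.18% to 14.1% in the other 44). A low share by itself lowers the TPM of nuclear genes. Slc5a1 averaged 0.0197 to 0.0412 TPM in the knockout groups and 1.73 to 2.44 TPM in the wild-type groups, and Slc5a2, which encodes SGLT2, averaged 145 TPM or more in every group. Defining markers of the thick ascending limb were present, with Egf at 31.5 TPM, Umod at 16.05 TPM and Slc12a1 at 5.23 TPM on average, while Cldn16 was listed at 0 in 38 libraries. Slc12a3, which marks the distal convoluted tubule, averaged 44.1 TPM and reached 229 TPM. Each other marker listed for the distal tubule and collecting duct averaged 8.01 TPM or less. Among them, Pvalb averaged 0.324 TPM and was listed at 0 in 12 libraries. In such bulk RNA, fewer cells of a type and less RNA per cell cannot be told apart.

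Expression of the 66 genes was concentrated in few of them (plot of group means). The sum of all members averaged 668.7 TPM, of which carboxylesterases gave 228, UGT2 genes 151, FMO genes 128, sulfotransferases 60.3, UGT3 genes 57.2, UGT1 genes 29.2 and the donor enzymes 15.6 TPM. Of the members, 28 passed the filter of at least 1 TPM in at least 5 samples and were tested, 17 reached 1 TPM in all 48 libraries, and 12 averaged at least 10 TPM. The other 38 never exceeded 2.48 TPM (Sult5a1), and the highest mean among them was 0.516 TPM (Ugt1a1, the bilirubin UGT).

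**Figure D1:**
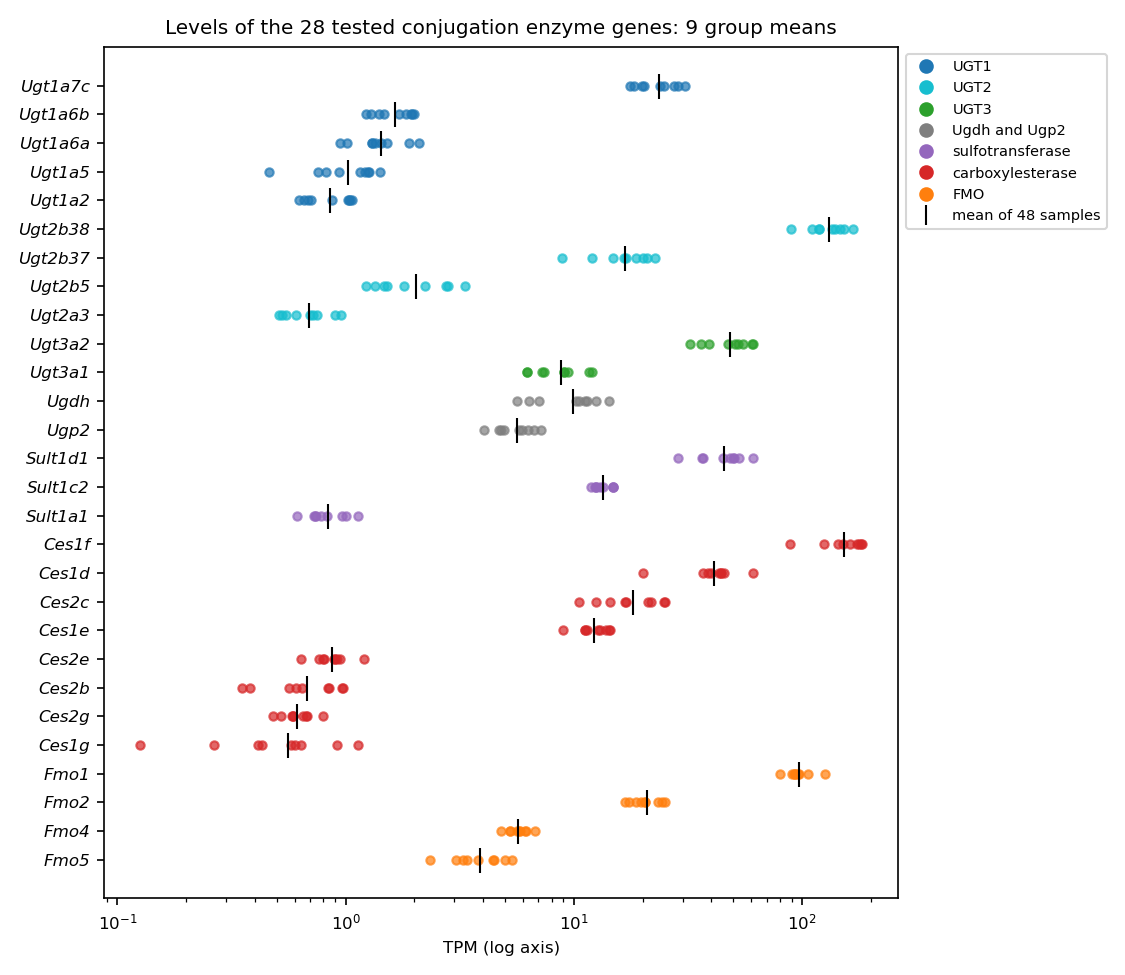
Group means of the 28 tested members in TPM on a log axis, 1 point for each of the 9 groups, coloured by family, with a bar at the mean of the 48 samples. Within each family 1 gene stands above the rest, from Ces1f at 153 TPM to Ugt1a7c at 23.6 TPM, and the spread of group means is wider for Ces1g and Ces2c than for Sult1c2.

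In each family 1 gene carried most of the level. Ces1f, a lipid and drug esterase (chromosome 8, 93256236 to 93279747), averaged 153 ± 51.9 TPM over all libraries (SD, n = 48) and made up 67.3% of the carboxylesterase sum, with 58.6% to 75.8% in single libraries. Ugt2b38 (chromosome 5, 87409942 to 87424203), of the UGT2B group, which handles steroids and drugs, averaged 131 ± 43.5 TPM and 86.9% of the UGT2 sum. Fmo1 (chromosome 1, 162829561 to 162866610), which also makes taurine from hypotaurine, averaged 97.3 ± 26.6 TPM and 76.1% of the FMO sum.
The leading member was Ugt3a2 for UGT3 (48.4 ± 15.2 TPM, 84.9%), whose human counterpart transfers glucose and xylose. It was Sult1d1 for the sulfotransferases (45.5 ± 16.7 TPM, 74.3%), which in mouse sulfates catecholamines. It was Ugt1a7c for UGT1 (23.6 ± 7.63 TPM, 80.8%), of the UGT1A group that handles phenols.
Over the libraries Ces1f ranged from 59.7 to 266 TPM, Ugt2b38 from 52.8 to 233 TPM and Fmo1 from 49.9 to 157 TPM, so the ranges of neighbours in this order overlapped. The ranges of Ugt3a2, Sult1d1 and Ces1d (41.3 ± 19.8 TPM), a triacylglycerol hydrolase, overlapped too. All genes were measured in the same libraries, and their levels were not compared within a library.

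Next in order came Fmo2 (20.8 ± 6.85 TPM), Ces2c (18.2 ± 7.61 TPM), which hydrolyses acylcarnitines and drug esters, Ugt2b37 (16.8 ± 9.07 TPM), Sult1c2 (13.4 ± 3.11 TPM), a phenol sulfotransferase, and Ces1e (12.3 ± 3.88 TPM), the esterase that holds beta-glucuronidase in the endoplasmic reticulum. Ugdh averaged 9.94 ± 4.91 TPM and Ugp2 5.63 ± 1.86 TPM. Sult1c2 varied least among the tested members, with a coefficient of variation of 23.1% and 2.65 times between its highest and lowest library, and Ces1g varied most (102%). Among the members not tested were Ugt1a1, Ugt1a8, Ugt1a9 and Ugt1a10; Ugt2a1, Ugt2b1, Ugt2b34, Ugt2b35 and Ugt2b36; Fmo6 and Fmo9; 15 sulfotransferases; and 11 carboxylesterases. Listed at 0 in every library were 12 members: Ugt2b1, Fmo6 and 10 sulfotransferases, among them Sult1e1, which inactivates estrogens, and all 7 Sult2a genes, which sulfate steroids and bile acids.

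The summed level of all 66 members averaged 790.2 ± 168 TPM in Akita knockouts with dapagliflozin and 572 ± 209 TPM in Akita knockouts with vehicle (SD, n = 6 each). In Akita wild type it averaged 708 ± 227 TPM with semaglutide (n = 5), 753 ± 61.6 TPM with dapagliflozin (n = 5) and 459 ± 123 TPM with vehicle (n = 6). In non-diabetic knockouts it averaged 768 ± 170.1 TPM with dapagliflozin (n = 6) and 660.0 ± 196 TPM with vehicle (n = 5), and in non-diabetic wild type 593 ± 172 TPM with dapagliflozin (n = 4) and 717 ± 122 TPM with vehicle (n = 5). Akita wild type with vehicle was the lowest of the 9 groups, and it also had the lowest mean protein-coding share, 8.60%, against 8.78% to 10.8% in the other groups. The part of that share in the sums was not tested.

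Dapagliflozin was compared with vehicle in Akita mice, averaged over both Sglt1 genotypes (11 against 12 samples). At an adjusted p under 0.05 in limma, 6 of the 28 tested members were called and all were higher with dapagliflozin: Ces2c, Ugdh, Ces1f, Ugt1a7c, Ugt3a2 and Ugt2b38. Of all 12742 genes tested, 104 (0.816%) were called, 102 of them (0.801%) higher. All 28 members were higher in deposited TPM, against 80.8% of all genes, but 21 of 28 after median-of-ratios scaling and after rescaling to nuclear protein-coding genes. The median log2 change of the members was 0.39 in TPM, where that of all genes was 0.17. Under median-of-ratios scaling the members' median was 0.26 and that of all genes -0.01. At an unadjusted p under 0.05 there were 16 members, against 17.5% of all genes.

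Of the donor enzymes, Ugdh (chromosome 5, 65413221 to 65435949), which makes the UDP-glucuronic acid that every glucuronidating UGT uses, was measured at 13.5, 9.95, 7.67, 12.6, 17.96 and 13.4 TPM in Akita knockouts with dapagliflozin. In Akita wild type with dapagliflozin it was 9.83, 13.01, 12.7, 9.10 and 11.5 TPM. With vehicle it was 4.19, 5.34 and 12.4 TPM (lowest, median and highest of 6) in Akita knockouts and 2.48, 5.89 and 8.48 TPM in Akita wild type. The wild-type groups did not overlap. The knockout groups overlapped through 1 vehicle sample, number 3, at 12.4 TPM. The log2 change was 0.96 ± 0.22 (SE, adjusted p = 0.0269), and all 11 dapagliflozin samples were above the vehicle median. Ugp2 (chromosome 11, 21321138 to 21371201), the enzyme before it, averaged 6.68 ± 1.86 and 4.68 ± 0.937 TPM with dapagliflozin in knockouts and wild type, against 4.96 ± 1.32 and 4.80 ± 1.29 TPM with vehicle (log2 change 0.17 ± 0.17, adjusted p = 0.624), and its change turned to -0.05 with median-of-ratios scaling.

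Among UGT1 genes, Ugt1a7c was 22.1, 28.7 and 46.8 TPM (again lowest, median and highest, as for every group of 6 below) in Akita knockouts with dapagliflozin and 23.2, 24.6, 24.4, 30.6 and 33.9 TPM in Akita wild type with dapagliflozin. With vehicle it was 11.04, 18.1 and 25.1 TPM in knockouts and 9.91, 15.6 and 26.2 TPM in wild type. The groups overlapped in both genotypes, because vehicle samples 1 and 3 of each lay among the dapagliflozin samples. The log2 change was 0.69 ± 0.17 (adjusted p = 0.0309). Ugt1a6a, Ugt1a6b and Ugt1a5, genes of the same cluster, averaged 0.461 to 2.00 TPM in these 4 groups, with log2 changes of 0.35, 0.37 and 0.47 that did not pass the test (adjusted p = 0.261, 0.351 and 0.188). All 5 tested UGT1 members were higher under either scaling.

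Of the UGT2 genes, Ugt2b38 was called: 107, 146 and 218 TPM in Akita knockouts and 129, 149, 208, 199.7 and 146 TPM in Akita wild type with dapagliflozin. With vehicle it was 78.8, 93.99 and 189 TPM in knockouts and 52.8, 81.7 and 130.1 TPM in wild type. The wild-type groups overlapped only by a margin, since the highest vehicle sample was just above the lowest dapagliflozin sample. The log2 change was 0.71 ± 0.18 (adjusted p = 0.0464). Ugt2b37 had the larger mean change, 0.79 ± 0.28, with 10 of 11 dapagliflozin samples above the vehicle median, but its samples were more scattered (8.76 to 40.9 TPM with dapagliflozin, 4.56 to 35.8 TPM with vehicle) and it was not called (adjusted p = 0.138). Ugt2b5 changed by 0.46 ± 0.20 (adjusted p = 0.235) and Ugt2a3, which glucuronidates bile acids in humans, by 0.15 ± 0.15 (adjusted p = 0.617).

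Both UGT3 genes moved in the same direction, 1 of them called. Ugt3a2 (chromosome 15, 9335550 to 9370955) was 37.0, 60.6 and 81.6 TPM in Akita knockouts and 57.3, 47.3, 45.7, 53.6 and 57.9 TPM in Akita wild type with dapagliflozin, against 23.8, 38.6 and 54.3 TPM in knockouts and 16.5, 32.3 and 45.6 TPM in wild type with vehicle. The wild-type groups met without overlap, and the knockout groups overlapped. The log2 change of Ugt3a2 was 0.69 ± 0.17 (adjusted p = 0.0322). Ugt3a1, which in humans uses N-acetylglucosamine, changed by 0.76 ± 0.22 and was just short of the call (adjusted p = 0.0735), with all 11 dapagliflozin samples above the vehicle median.

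**Figure D2:**
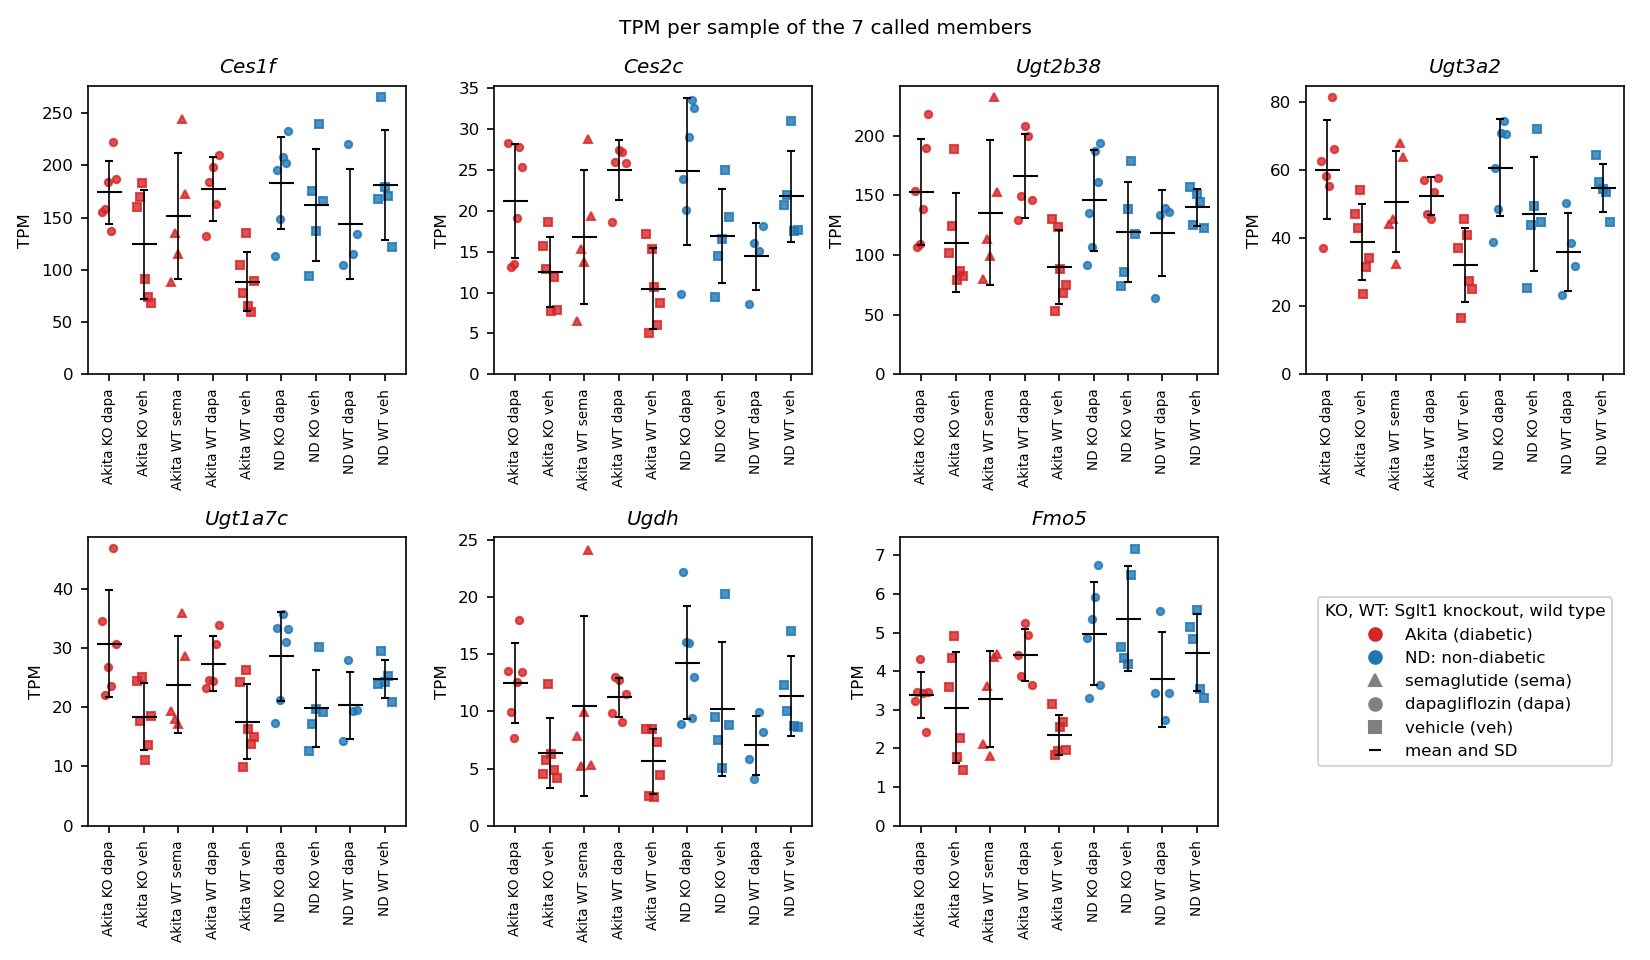
TPM of each sample for the 7 members called in any comparison, 1 panel per gene, with the mean and SD of each of the 9 groups and a linear axis from 0. Most points of Akita vehicle groups (red squares) lie lower than those of Akita dapagliflozin groups (red circles) for Ces2c and Ugdh, but the points overlap. For Ces2c, knockout dapagliflozin samples 2 and 3 lie at 13.1 and 13.5 TPM, among vehicle points. For Ugdh, knockout vehicle sample 3 lies at 12.4 TPM and knockout dapagliflozin sample 3 at 7.67 TPM.

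No sulfotransferase was called. Sult1d1 (chromosome 5, 87554645 to 87569027) had 28.8, 57.6 and 70.0 TPM in Akita knockouts and 46.6, 51.7, 39.8, 62.7 and 50.2 TPM in Akita wild type with dapagliflozin. With vehicle it had 19.01, 34.2 and 56.8 TPM in knockouts and 20.6, 29.4 and 37.1 TPM in wild type. The wild-type groups did not overlap, but the average change of 0.68 ± 0.20 missed the threshold (adjusted p = 0.0724). Sult1c2 stood at 14.9 ± 4.03 and 13.03 ± 1.46 TPM with dapagliflozin and 12.5 ± 2.03 and 12.6 ± 3.09 TPM with vehicle in knockouts and wild type (log2 change 0.14 ± 0.14, adjusted p = 0.629; -0.11 with median-of-ratios scaling). Sult1a1, another phenol sulfotransferase, averaged 0.727 to 1.00 TPM in these groups and changed by 0.11 ± 0.17 (adjusted p = 0.762).

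Carboxylesterases gave the member with the largest change. Ces2c (chromosome 8, 104847068 to 104854483) was 13.1, 22.3 and 28.3 TPM in Akita knockouts and 18.6, 26.0, 27.4, 27.1 and 25.8 TPM in Akita wild type with dapagliflozin. With vehicle it was 7.80, 12.4 and 18.6 TPM in knockouts and 5.08, 9.68 and 17.2 TPM in wild type. The wild-type groups did not overlap, while knockout dapagliflozin samples 2 and 3 lay among the vehicle samples. The log2 change was 1.00 ± 0.21 (adjusted p = 0.0178). Ces1f was 137, 171 and 223 TPM in Akita knockouts and 132, 184, 198, 163 and 209 TPM in Akita wild type with dapagliflozin, against 68.0, 126 and 183 TPM in knockouts and 59.7, 83.9 and 135 TPM in wild type with vehicle. Its groups overlapped in knockouts, where vehicle samples 1 to 3 lay among the dapagliflozin samples, and in wild type through 1 vehicle sample. The log2 change was 0.80 ± 0.18 (adjusted p = 0.0281).

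Ces1d changed by as much as Ugdh, 0.96 ± 0.26, but its vehicle samples were more scattered (16.4 to 57.4 TPM in knockouts, 13.7 to 33.5 TPM in wild type) and it was not called (adjusted p = 0.054). Ces1e changed by 0.41 ± 0.17 (adjusted p = 0.200), Ces1g, a liver-type lipid hydrolase, by 0.31 ± 0.18 (adjusted p = 0.360) and Ces2e by 0.06 ± 0.14 (adjusted p = 0.842). All 8 tested carboxylesterases were higher in TPM, and 6 of 8 with either scaling, where Ces2e and Ces2g turned slightly negative. Ces1g and Ces2b stayed under 1 TPM in every Akita vehicle sample and passed the filter through other groups. Their direction is tied to that filter.

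None of the 4 tested FMO genes was called with dapagliflozin. Fmo1 averaged 107 ± 37.8 and 96.5 ± 8.58 TPM with dapagliflozin and 95.6 ± 34.9 and 90.7 ± 19.1 TPM with vehicle in knockouts and wild type (log2 change 0.13 ± 0.16, adjusted p = 0.696). Fmo2 and Fmo4, which oxygenate amines and sulfides, changed by 0.20 ± 0.18 and 0.07 ± 0.20 (adjusted p = 0.578 and 0.887). All 3 turned negative with either scaling. Fmo5, which in humans inserts oxygen next to ketones, changed by 0.44 ± 0.15 (adjusted p = 0.121), with all 11 dapagliflozin samples above the vehicle median.

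**Figure D3:**
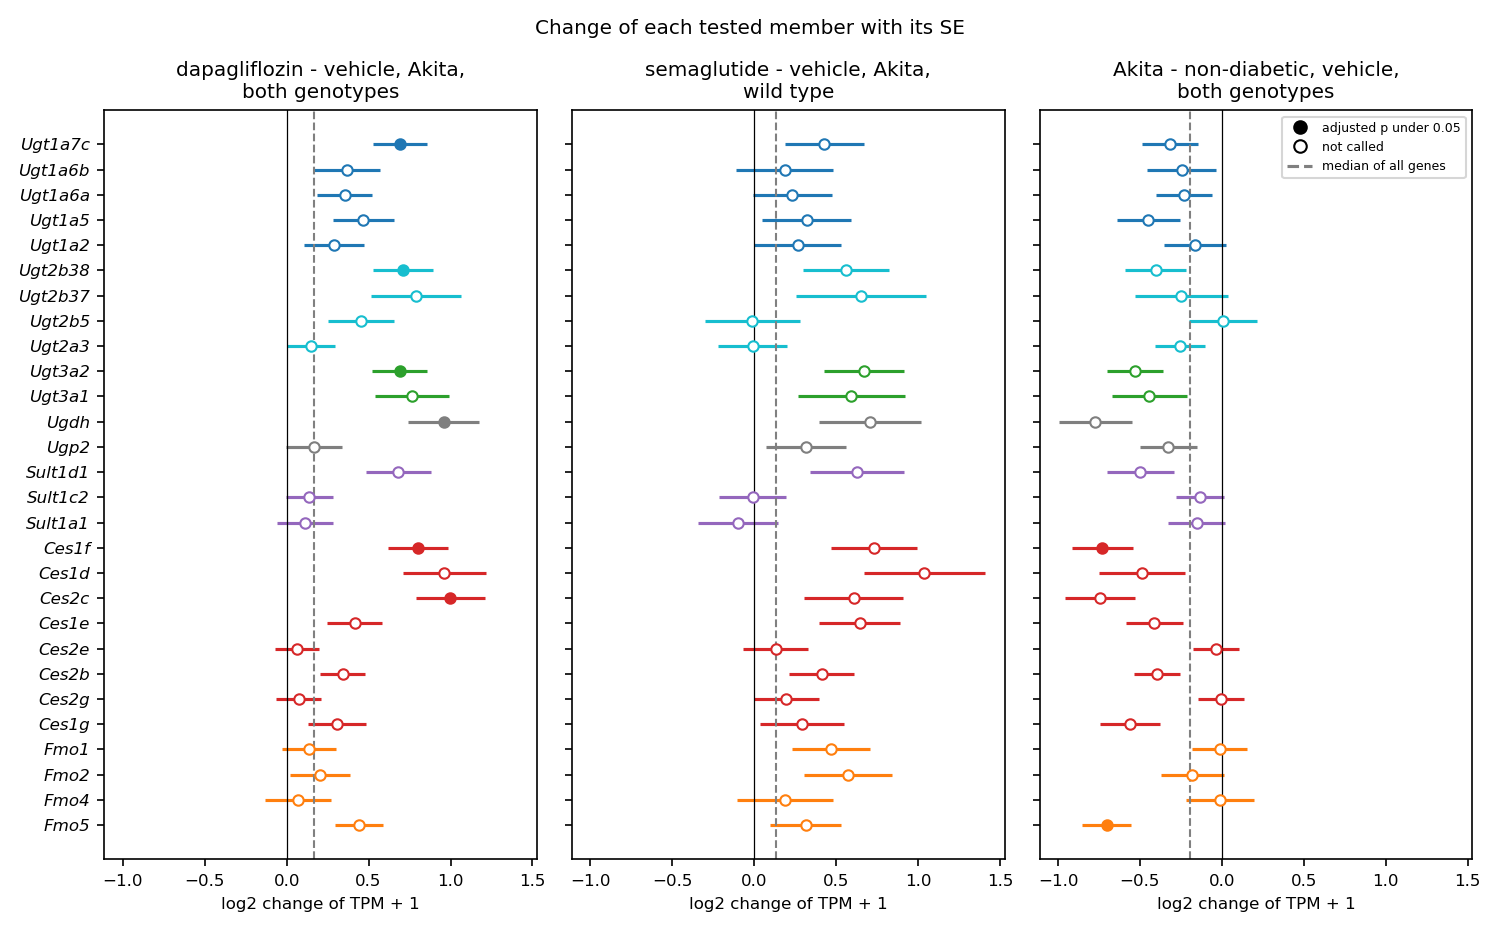
Log2 change of TPM + 1 for each of the 28 tested members with its SE, in Akita dapagliflozin against vehicle (both genotypes), Akita semaglutide against vehicle (wild type) and Akita against non-diabetic vehicle (both genotypes); filled points were called and the dashed line is the median of all genes. Filled points stand at 0.69 to 1.00 for dapagliflozin and at -0.73 and -0.70 for Akita, and the semaglutide panel has none.

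These calls depended on few libraries. Without the 4 Akita vehicle libraries that had fewer than 9000 genes, limma called 0 of the 6 members and 0 of all genes, and 11 of 28 members had an unadjusted p under 0.05, against 5.39% of all genes. The log2 changes were then 0.76 for Ces2c, 0.84 for Ugdh, 0.55 for Ces1f, 0.54 for Ugt1a7c, 0.52 for Ugt3a2 and 0.51 for Ugt2b38, with adjusted p-values from 0.542 to 0.781. After median-of-ratios scaling, under which the typical gene hardly changed, Ces2c was called at 0.76 (adjusted p = 0.0263) and Ces1f at 0.54 (adjusted p = 0.00689) (plot of log2 changes by setting). Rescaled to nuclear protein-coding genes, Ces2c (0.74), Ces1f (0.52) and Ugt1a7c (0.42) were called, with adjusted p-values of 0.0225, 0.00989 and 0.0403. Counts of all genes called under either scaling are not given here.

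**Figure D4:**
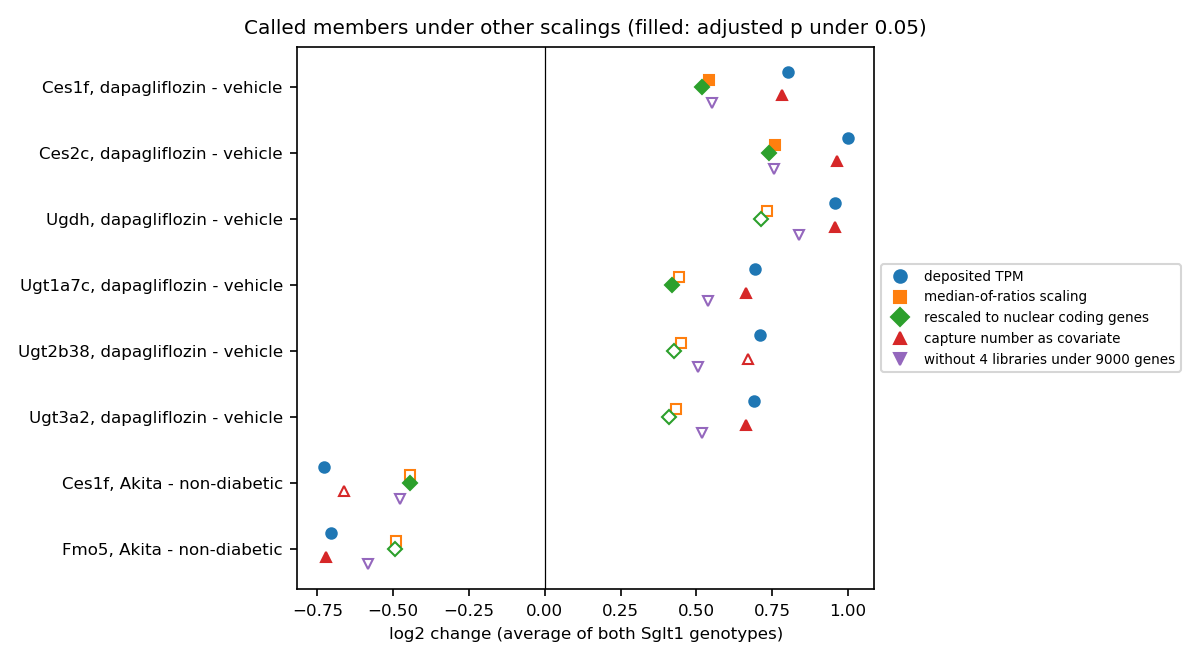
Log2 change of the called members, averaged over both Sglt1 genotypes, as deposited and under 4 alternatives; filled symbols have an adjusted p under 0.05. Every value keeps its sign, and no symbol is filled without the 4 libraries under 9000 genes.

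Within each genotype no member passed the test with dapagliflozin in Akita mice. In wild type (5 against 6 samples) limma called 0 of 28 members and 0% of all genes. At an unadjusted p under 0.05 there were 13 members, all higher, against 10.1% of all genes. In these vehicle samples Ces2b, Ugt1a5 and Ces1g stayed under 1 TPM, and their direction is tied to the filter. Dapagliflozin and vehicle samples did not overlap for Ces2c, Ugdh, Fmo5, Ugt3a2 and Sult1d1, that is for 5 of 28 members against 0.981% of all genes, in the higher direction. The largest change was that of Ces2c, 1.28 ± 0.30 (adjusted p = 0.196), before Ces1d (1.10 ± 0.37, adjusted p = 0.305) and Ces1f (1.03 ± 0.26, adjusted p = 0.220).
In knockouts (6 against 6 samples) 0 of 28 members and 0% of all genes were called, with 9 members at an unadjusted p under 0.05, all higher, against 7.59% of all genes. No member was without overlap, against 0.133% of all genes in the higher direction. Ugdh changed by 0.92 ± 0.30 and Ugt1a7c by 0.72 ± 0.23 (adjusted p = 0.643 for both), and Ces2c by 0.72 ± 0.29 (adjusted p = 0.648). Whether the change with dapagliflozin differed between the genotypes was not tested.

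Diabetes itself was compared in vehicle mice, 12 Akita against 10 non-diabetic samples averaged over genotypes. Of 28 members 2 were called, Fmo5 and Ces1f, both lower in Akita, against 71 of all genes (0.557%), of which 68 (0.534%) were lower. In TPM 27 of 28 members were lower, against 84.4% of all genes, and 20 of 28 with either scaling. The median change of the members was -0.32, where that of all genes was -0.20. Under median-of-ratios scaling the members' median was -0.12. By genotype, the medians of members and of all genes were -0.51 and -0.15 in wild type. In knockouts they were -0.18 and -0.24, so there the members fell less than all genes. At an unadjusted p under 0.05 there were 11 members, all lower, against 18.5% of all genes. The 12 Akita vehicle samples are also the ones that dapagliflozin was compared with, so both comparisons share their values.

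Fmo5 (chromosome 3, 97628804 to 97655282) was 1.44, 2.93 and 4.92 TPM in Akita knockouts and 1.82, 2.26 and 3.14 TPM in Akita wild type. In non-diabetic mice it was 4.62, 4.34, 4.19, 6.48 and 7.17 TPM in knockouts and 5.15, 4.82, 5.58, 3.55 and 3.31 TPM in wild type. The wild-type groups did not overlap, and in knockouts 2 Akita samples, numbers 2 and 3, reached the non-diabetic range. Fmo5 fell by 0.70 ± 0.15 on the log2 scale (adjusted p = 0.0215), and 11 of 12 Akita samples were below the non-diabetic median.
Ces1f was 68.0, 126 and 183 TPM in Akita knockouts and 59.7, 83.9 and 135 TPM in Akita wild type, against 93.6, 175, 137, 239.6 and 165 TPM in non-diabetic knockouts and 168, 266, 179, 171 and 122 TPM in non-diabetic wild type. Its groups overlapped in both genotypes, in wild type through the highest Akita sample. Ces1f fell by 0.73 ± 0.19 (adjusted p = 0.0493), with 10 of 12 Akita samples below the non-diabetic median.

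Of the others, Ugdh (-0.77 ± 0.22, adjusted p = 0.0735) and Ces2c (-0.74 ± 0.21, adjusted p = 0.0735) had larger changes than Fmo5 but did not pass, with 11 of 12 Akita samples below the non-diabetic median for each. Ces1g changed by -0.56 ± 0.18 (adjusted p = 0.109) and was below the non-diabetic median in all 12 Akita samples. It lay at 0 to 0.528 TPM in Akita and 0 to 2.58 TPM in non-diabetic samples. No Akita vehicle sample reached the 1 TPM of the filter, which Ces1g passed through other groups. Its lower level in Akita is tied to that filter. The same holds for Ces2b, with at most 0.736 TPM in Akita wild-type and 0.626 TPM in Akita knockout vehicle samples. Ugt3a2 changed by -0.53 ± 0.17 (adjusted p = 0.108), Sult1d1 by -0.50 ± 0.20 (adjusted p = 0.185) and Ugt2b38 by -0.40 ± 0.19 (adjusted p = 0.238). Fmo1 (-0.01 ± 0.17), Fmo4 (-0.01 ± 0.20) and Ugt2b5 (0.01 ± 0.21) were near 0 in TPM, and all 3 were above 0 with either scaling. Without the 4 libraries under 9000 genes, Fmo5 (-0.58, adjusted p = 0.388) and Ces1f (-0.48, adjusted p = 0.836) were no longer called. After median-of-ratios scaling Fmo5 stood at -0.49 (adjusted p = 0.0874) and Ces1f at -0.44 (adjusted p = 0.0614).

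In wild type alone (6 Akita against 5 non-diabetic samples) limma called 0 of 28 members and 3 of all genes (0.0235%). There were 15 members at an unadjusted p under 0.05, all lower, against 7.6% of all genes. Among them, Ces2b, Ugt1a5 and Ces1g reached at most 0.736, 0.781 and 0.377 TPM in the Akita samples. They passed the filter of 1 TPM through other groups, so their part in this count is tied to that filter. Akita and non-diabetic samples did not overlap for Ces2c, Ugdh and Fmo5, 3 of 28 members, against 0.651% of all genes in that direction. Ces1f had the smallest adjusted p, 0.198, at -1.03 ± 0.26, and it alone of the members was called after either scaling.
Akita knockouts against non-diabetic knockouts (6 against 5 samples) gave 0 calls among members and 0% of all genes. Fmo5 (-0.70 ± 0.21) and Ces1g (-0.60 ± 0.26) alone had an unadjusted p under 0.05, against 14.4% of all genes. The limit of the filter given above for Ces1g holds here too. The difference between the genotypes in the effect of diabetes was tested as an interaction: 0 of 28 members and 0% of all genes were called, and 0 members had an unadjusted p under 0.05, against 3.19% of all genes. The median of the members was 0.24, where that of all genes was -0.08. Positive values were found for 22 of 28 members, against 39.8% of all genes.

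Semaglutide was given to Akita wild type and compared with the same vehicle samples (5 against 6). The capture numbers in the sample titles ran from 88 to 99 with semaglutide and from 1 to 82 with vehicle. They ran from 4 to 78 in Akita wild type with dapagliflozin. In both comparisons of semaglutide the drug and the capture number cannot be told apart. By limma 0 of 28 members and 0% of all genes were called. Ces1d was 23.6, 36.2, 26.9, 91.1 and 50.6 TPM with semaglutide, against 13.7, 17.9 and 33.5 TPM (lowest, median and highest) with vehicle. The semaglutide samples were widely scattered, with sample 5 the highest, and the groups overlapped. Ces1d had the largest change, 1.04 ± 0.37, and Ces1f changed by 0.73 ± 0.26 (adjusted p = 0.823 for both). Ugt3a2 changed by 0.67 ± 0.24 and Ugdh by 0.71 ± 0.31, with adjusted p-values of 0.823 and 0.845. There were 10 members at an unadjusted p under 0.05, all higher, against 5.82% of all genes, and 24 of 28 were higher, against 70.7% of all genes. Ces2b, among the 10, stayed under 1 TPM in every vehicle sample, so its direction is tied to the filter. No member was without overlap, against 0.369% of all genes in the higher direction. Vehicle samples 2 and 5 are among the 4 libraries under 9000 genes. The changes and counts with semaglutide are given in deposited TPM only.
Set against dapagliflozin in Akita wild type (5 against 5), semaglutide gave 0 calls among members and 0% of all genes. Ces2c was the only member at an unadjusted p under 0.05, against 2.61% of all genes: 6.54, 15.3, 13.8, 28.8 and 19.4 TPM with semaglutide and 18.6, 26.0, 27.4, 27.1 and 25.8 TPM with dapagliflozin, a log2 change of -0.67 ± 0.31. Fmo1 stood at 125 ± 24.01 TPM with semaglutide and 96.5 ± 8.58 TPM with dapagliflozin (0.36 ± 0.25), and Fmo2 at 25.1 ± 5.80 and 18.8 ± 4.55 TPM (0.41 ± 0.28). A p that misses the threshold does not show that the drugs act alike.

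Loss of Sglt1 called no member. Averaged over 4 backgrounds, 0 of 28 members passed, against 3 of all genes (0.0235%). Ugt1a6a was the only member at an unadjusted p under 0.05 (0.27 ± 0.12), against 4.91% of all genes. In non-diabetic vehicle mice 0 members and 3 of all genes (0.0235%) were called, and Ugt1a6a alone had an unadjusted p under 0.05, against 4.61% of all genes. It was 2.44, 1.47, 1.55, 1.81 and 3.27 TPM in knockouts and 1.63, 1.76, 0.544, 0.781 and 0.336 TPM in wild type (0.66 ± 0.25, adjusted p = 0.981), so the groups overlapped.
In Akita vehicle mice 0 members and 2 of all genes (0.0157%) were called, and Ces1d alone had an unadjusted p under 0.05 (0.75 ± 0.35, adjusted p = 1), against 1.95% of all genes. It was 16.4, 37.3 and 57.4 TPM in knockouts and 13.7, 17.9 and 33.5 TPM in wild type, with knockout samples 1 to 3 above every wild-type sample.

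In non-diabetic mice dapagliflozin called no member. In knockouts (6 against 5) 0 of 28 members and 1 of all genes (0.00785%) were called, with Ugt1a7c the only member at an unadjusted p under 0.05 (0.52 ± 0.24), against 3.88% of all genes. In wild type (4 against 5) 0 members and 0% of all genes were called. At an unadjusted p under 0.05 were Ugt2b5, higher (0.90 ± 0.32), and Ugp2 (-0.70 ± 0.27) and Ugt3a2 (-0.63 ± 0.27), lower, against 4.05% of all genes. Ugt2b5 was 4.96, 2.73, 1.21 and 4.43 TPM with dapagliflozin and 1.23, 1.28, 0.367, 1.42 and 1.85 TPM with vehicle. The groups overlapped through 1 dapagliflozin sample at 1.21 TPM. Ugp2 was 2.88, 4.28, 3.34 and 5.64 TPM with dapagliflozin and 7.49, 10.1, 5.85, 7.72 and 4.86 TPM with vehicle, overlapping at 1 sample of each group.

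Whether dapagliflozin acted differently in Akita and in non-diabetic mice was tested as an interaction in each genotype. In wild type 0 of 28 members and 0% of all genes were called, 12 members had an unadjusted p under 0.05, all positive, against 11.2% of all genes, and the median of the members was 0.59, where that of all genes was 0.32. Ces2c had the largest value, 1.85 ± 0.45 (adjusted p = 0.261): it averaged 25.0 ± 3.64 TPM with dapagliflozin and 10.5 ± 4.90 TPM with vehicle in Akita, and 14.5 ± 4.11 TPM with dapagliflozin and 21.8 ± 5.53 TPM with vehicle in non-diabetic wild type. Ugdh (1.64 ± 0.47) and Ugt3a2 (1.39 ± 0.36) came next, with adjusted p-values of 0.271 and 0.261. In knockouts 0 of 28 members and 0% of all genes were called, and Ugt1a6a alone had an unadjusted p under 0.05 (0.77 ± 0.33), against 4.98% of all genes.

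The other genes of the pathway are given from lists set down with earlier results of these data known. Of all 12742 genes tested, 104 were called with dapagliflozin in Akita and 71 with diabetes, with median changes of 0.17 and -0.20. Of 12 genes for cofactor supply, all tested, Ugdh alone was called with dapagliflozin in Akita, and none with diabetes, with median changes of 0.28 and -0.30. Slc35d1, which carries UDP-glucuronic acid into the endoplasmic reticulum, changed by 0.49 with dapagliflozin (adjusted p = 0.0788), and Papss1 and Papss2, which make the sulfate donor, by 0.47 and 0.38 (adjusted p = 0.178 and 0.246). Of 6 tested genes for glucuronate use and removal none was called in either comparison. Gusb, the beta-glucuronidase that removes glucuronic acid, changed by -0.75 with diabetes (adjusted p = 0.0561) and Miox, which degrades inositol to glucuronate, by -0.59 (adjusted p = 0.0992).
Of 13 tested carriers of anions and conjugates, Slc17a1 and Slc17a3, urate and organic anion transporters of the apical membrane, rose with dapagliflozin in Akita by 0.82 and 0.72 on the log2 scale (adjusted p = 0.016 and 0.0251). Slc17a3 (-0.65, adjusted p = 0.0463) and Slco1a1, an uptake carrier (-1.14, adjusted p = 0.0255), fell with diabetes. The basolateral anion exchanger Slc22a6 changed by 0.52 with dapagliflozin (adjusted p = 0.0811) and the efflux pump Abcc2 by 0.41 (adjusted p = 0.280). Of 12 tested other drug-handling enzymes, Pon3, a lactonase, rose with dapagliflozin (0.60, adjusted p = 0.0467) and Inmt, an amine methyltransferase, fell with diabetes (-0.89, adjusted p = 0.018). Of 13 tested nuclear receptors and factors none was called in either comparison: Nr1h4 changed by 0.53 and Nfe2l2 by 0.16 with dapagliflozin. The changes in these lists are given in deposited TPM only. Without the Akita vehicle libraries under 9000 genes, limma called no gene with dapagliflozin. The calls of Ugdh, Slc17a1, Slc17a3 and Pon3 with dapagliflozin were therefore lost in that setting.

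The marker lists are given beside the values of all 12742 genes tested. With diabetes 84.4% of these were lower (median log2 change -0.20) and 71 genes were called. With dapagliflozin in Akita 80.8% were higher (median 0.17) and 104 genes were called. Without the 4 Akita vehicle libraries under 9000 genes limma called no gene with dapagliflozin. All 8 markers of the late proximal tubule were lower in Akita than in non-diabetic vehicle mice (median -0.69, Slc7a13 and Slco1a1 called) and higher with dapagliflozin in Akita (median 0.60, none called). Their summed level was 355 to 843 TPM in Akita wild-type vehicle samples, against 716 to 1131 TPM in non-diabetic wild-type vehicle samples, and 461 to 1220 TPM in Akita knockout vehicle samples, against 668 to 1234 TPM in non-diabetic knockout vehicle samples. The groups overlapped in both genotypes. Over all libraries Slc27a2 averaged 558.8 TPM and Atp11a 184.5 TPM, and each other marker of this list 32.63 TPM or less. The sum therefore mainly follows Slc27a2 and Atp11a. Of the 10 early proximal markers, 9 were lower with diabetes (median -0.21) and 9 higher with dapagliflozin (median 0.25), and none was called, with both medians near those of all genes. The 13 genes listed as androgen-induced or male-biased in mouse kidney were all lower with diabetes (median -0.87, 5 called). All were higher with dapagliflozin (median 0.72, 3 called), and Kap, among them, stood at -0.78 and 0.76. Slc7a13 and Slco1a1 are also in the late proximal list, Slco1a1 among the carriers above and Gusb among the genes for glucuronate use. These lists are therefore not independent. All 6 tested thick ascending limb markers were lower with diabetes (median -0.40), and 4 of 6 were higher with dapagliflozin (median 0.17). Of 8 tested markers of the distal tubule and collecting duct, 7 were lower with diabetes (median -0.13) and 6 higher with dapagliflozin (median 0.20). The summed level of the 10 listed markers lay between 13.09 and 255 TPM over all samples. Slc12a3 averaged 44.1 TPM and each other marker of this list 8.01 TPM or less, so the sum mainly follows Slc12a3. Endothelial markers were lower in 8 of 8 with diabetes (median -0.34) and higher in 6 of 8 with dapagliflozin (median 0.11). Summed podocyte and leukocyte markers stayed at or under 15.3 TPM in the Akita dapagliflozin groups and in all vehicle groups. The part of these markers in the results for the conjugation enzymes was not tested.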

How the data were processed

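RNA from laser-captured SGLT2-positive tubules was sequenced as stranded total RNA libraries (SMARTer Pico v3 chemistry, 0.5 ng RNA, DV200 above 30%), per the labels' protocols. The deposited values are TPM per gene, which the authors made with Salmon on GRCm38, with MultiQC 1.8 among the tools, per the submitters' processing notes (release of Salmon and gene models: not given in the sources used here). A column, matched by sample title, was present for 48 of the 54 labelled samples, and 6 were not analysed here. TPM is not a count and keeps no depth.

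Groups were taken from the labels. For each gene log2(TPM + 1) was fitted with limma 3.58.1 (R 4.3.3, statmod 1.5.0), with 9 groups in 1 model (39 residual degrees of freedom) and trended, robust moderated variances. Genes with at least 1 TPM in at least 5 samples were tested, 12742 of 55487. Tests were 2-sided, p-values were adjusted by Benjamini and Hochberg over all genes tested in each of 16 comparisons, and an adjusted p under 0.05 is a call. Fold changes on this scale understate those of low genes. The fit was checked on simulated data.

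Members and lists were chosen with earlier results of these data known. Named with values were Ugdh and Ugp2, the 4 tested members with the highest mean in each family, every called member, and the 2 members with the smallest p in each comparison that is not an interaction. A few other members are named for their values. Alternatives were a pseudocount of 0.1, no filter, a filter of 24 samples, median-of-ratios scaling, rescaling to nuclear protein-coding genes, the capture number as a covariate, leaving out libraries under 9000 genes, fitting only the groups compared, and leaving out each library in turn. Motifs, promoters and shared stretches of 31 bases were read from RefSeq and GENCODE tables with Python 3.11.15. Some items are not reported here.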

Additional observations from a re-analysis of the deposited data

Results flagged for a closer look

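Within groups of 4 to 6 samples, the highest or lowest TPM stood apart from the others by Dixon's gap ratio in 15 of 225 tests of a gene in a group, and chance gives about 1 in 20. The UGT1 and UGT2 genes gave 7 of them. Ugt1a6b was 2.685 TPM in Akita wild-type vehicle sample 4 (next 1.306). Ugt1a6a was 2.483 TPM in non-diabetic knockout dapagliflozin sample 4 (next 1.304), 3.748 TPM in Akita knockout vehicle sample 3 (next 1.663) and 2.838 TPM in Akita semaglutide sample 5 (next 1.247). Ugt2b38 was lowest, 64.08 TPM, in non-diabetic wild-type dapagliflozin sample 2 (next 133.7). Ugt2b37 was 39.45 TPM in non-diabetic knockout vehicle sample 3 (next 14.16), and Ugt2a3 was 1.256 TPM in Akita semaglutide sample 6 (next 0.4505).

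Ugdh was 12.37 TPM in Akita knockout vehicle sample 3 (next 6.272) and 24.12 TPM in Akita semaglutide sample 5 (next 9.939). Ces2c was lowest, 18.61 TPM, in Akita wild-type dapagliflozin sample 1 (next 25.84). Ces1e was 21.2 TPM in non-diabetic wild-type dapagliflozin sample 3 (next 8.356) and 22.21 TPM in Akita knockout dapagliflozin sample 3 (next 14.48). Ces1g was 1.316 TPM in Akita semaglutide sample 5 (next 0.3522). Fmo2 was 28.48 TPM in non-diabetic wild-type dapagliflozin sample 3 (next 14.02), and Fmo4 was 13.88 TPM in non-diabetic wild-type vehicle sample 3 (next 5.993). Akita semaglutide sample 5 gave 3 of these values, and Akita knockout vehicle sample 3 and non-diabetic wild-type dapagliflozin sample 3 gave 2 each.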

How the results depend on the processing

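For dapagliflozin in Akita mice, averaged over genotypes, 6 members were called in the deposited TPM. There were 0 with no filter, 2 with median-of-ratios scaling, 3 with rescaling to nuclear protein-coding genes, 0 without the 4 libraries under 9000 genes, 0 with only the groups compared, 7 with the stricter filter and 5 with the capture number. Leaving out each library in turn gave 0 to 11 calls. There were 0 without Akita knockout vehicle sample 6 or Akita wild-type dapagliflozin sample 4, and 1 without Akita wild-type vehicle sample 2 or 5, Akita knockout vehicle sample 4 or 5, Akita wild-type dapagliflozin sample 2 or Akita knockout dapagliflozin sample 5. There were 3 without Akita wild-type dapagliflozin sample 5 or 6 or Akita knockout dapagliflozin sample 1 or 6, and 11 without Akita knockout vehicle sample 3. Ces2c lost its call in 3 of 48 such fits and Ugt2b38 in 21. Counts of all genes called are given for the deposited TPM and without the 4 libraries only. Whether the counts of members moved with those of all genes in the other settings is therefore not shown.

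For Akita against non-diabetic vehicle mice, averaged over genotypes, 2 members were called, and 1 with no filter, 0 with median-of-ratios scaling, 1 with rescaling, 1 with the capture number, 0 without the 4 libraries and 0 with only the groups compared. Leaving out each library gave 0 to 6 calls: 0 without non-diabetic wild-type vehicle sample 1, non-diabetic knockout vehicle sample 5 or 6 or Akita knockout vehicle sample 6, 4 without Akita wild-type vehicle sample 1 or Akita knockout vehicle sample 3, 6 without non-diabetic knockout vehicle sample 1, and 1 without 32 others. Ces1f lost its call in 36 of 48 fits and Fmo5 in 4. In wild type alone the 0 calls became 1 with median-of-ratios scaling and 1 with rescaling. The causes were not tested. For diabetes, counts of all genes called are given for the deposited TPM only. The other comparisons gave 0 calls under every alternative run. Single changes were followed for the called members in each comparison other than the interactions. Where fewer than 2 were called, the 2 members with the smallest p were followed. These lost their call 131 times and gained one 2 times in a count that does not cover every alternative, and none changed direction while called. Calls that other members gained are in the counts above. No paired analysis was possible because the replicate numbers only name samples and the labels pair none. Without depth, low members such as Ugt2a3 cannot be given a counting error.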
